A study of Mus musculus with 18 samples.

Results

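Microglia cells were compared directly with neuron cells, gene by gene, in 6 of the 18 libraries of the series. The members were the 3 libraries labelled as mouse microglia in primary culture and the 3 labelled as mouse neurons in primary culture, taken by the library names that the deposited table's key gives. The tissue of origin is given as brain for both. Strain, age, days in culture and any treatment are not given in the labels, nor is it said whether the replicates come from separate cultures. The p-values therefore reflect the spread among these libraries alone, which may be technical. All cell libraries shared 1 sequencing pool, run on 2 SMRT cells, and were made from polyadenylated RNA that was turned into full-length cDNA, reamplified and read on a PacBio instrument. Each read is therefore meant to be 1 whole transcript, and counts are not scaled by length. The 3 astrocyte cell libraries of the same pool entered the fit with them, for the spread between libraries and for the level of each gene in another cell type.

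Neurons are electrically excitable cells that pass signals through synapses: a presynaptic terminal releases transmitter from vesicles, and receptors held by scaffold proteins on the postsynaptic side receive it. Microglia are the resident macrophages of the brain. They arise from yolk sac progenitors rather than from the neural tube, depend on the receptor Csf1r and the transcription factor Spi1 (PU.1), take up debris into lysosomes, and respond to microbial products through Toll-like receptors with cytokines, chemokines and interferon. The pair therefore spans neural and myeloid lineages within 1 organ.

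Library totals of the 6 libraries ran from 434298 to 683381 reads. Microglia libraries held reads under 6445 to 7430 gene labels and neuron libraries under 9818 to 10156. The 20 labels with the most reads took 24.8% of all microglia reads and 15.3% of all neuron reads. Isoform counts were added up within each gene label and scaled with TMM factors, which were 0.653 to 0.682 in microglia libraries and 1.22 to 1.24 in neuron libraries. Levels are given in counts-per-million units (CPM) of the TMM-scaled totals, as mean ± SD with n = 3 libraries. A library with 0 reads of a gene may still hold up to 3, which corresponds to 8.54 CPM in microglia cells and 4.53 CPM in neuron cells on average. Where a group had 0 reads, the fold was taken against that floor and is written "at least", and no fold is given against a group with only 1 to 3 reads in all. The reads carry no molecular identifiers, so these floors cover counting error only.

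Of 6637 genes tested, 4268 differed (64.3%, the background against which every count below is to be read) by edgeR's quasi-likelihood test at a Benjamini-Hochberg adjusted p under 0.05. Of all tested genes, 1718 were higher in microglia cells (25.9%) and 2550 were higher in neuron cells (38.4%). With library totals in place of TMM the split was 1166 against 3805, and the median log2 difference of all genes (microglia cells minus neuron cells) moved from -0.49 to -1.37. The 3 microglia values and the 3 neuron values did not overlap in 4642 genes (69.9%). Most differences were large: 3868 of the called genes differed by more than 2-fold and 2259 by more than 8-fold, 821 of them toward microglia and 1438 toward neurons. Genes with 0 reads in the other cell type numbered 363 among those higher in microglia cells and 965 among those higher in neuron cells. A gene that is off in one cell type passed the filter on low counts only through the other or through astrocyte cells. A gene that passed through the other compared cell type could hardly fail to be called. The 4 tested genes with 0 reads in both groups passed through astrocyte cells.

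**Figure D1:**
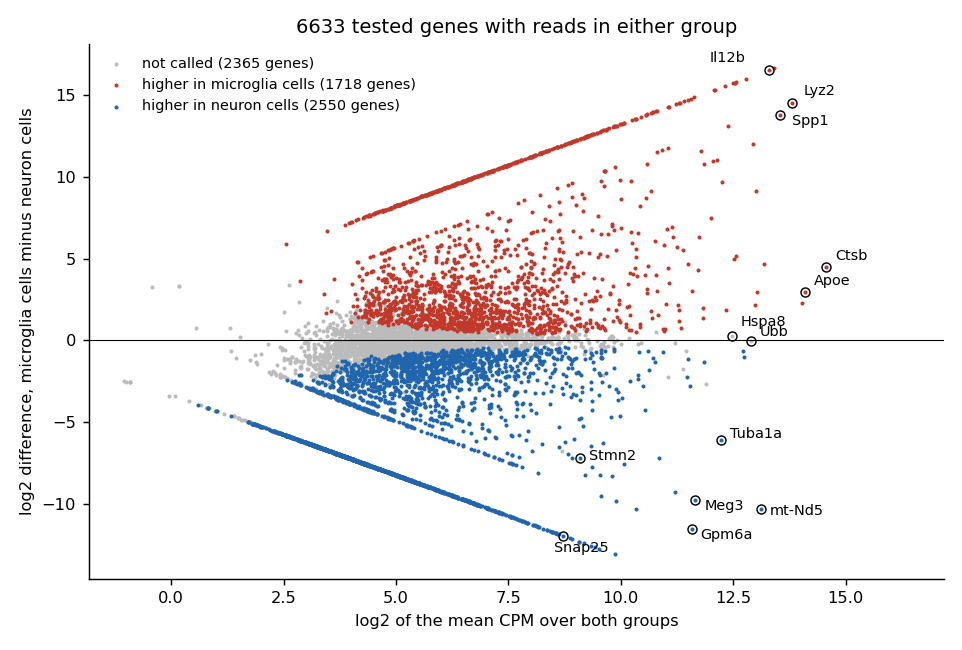
Mean level (x axis, log2 CPM over both groups) against the log2 difference of microglia cells minus neuron cells (y axis) for 6633 tested genes, with the 4 genes at 0 reads in both groups left out; each point is a gene, coloured by its call. Points fan out from 0 in both directions, the straight outer edges are genes with 0 or very few reads in one group, and Ubb and Hspa8 lie near 0 among the genes of highest level.

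Marker lists were set against the labels first. Microglia and macrophage identity genes summed to 32473 to 38547 RPM (reads-per-million units of unscaled totals) in microglia libraries and to 115 to 164 RPM in neuron libraries. Of the 26 members with a row in the table, 23 had 0 reads in neuron cells. Pan-neuronal genes summed to 16139 to 18330 RPM in neuron libraries and to 9.21 to 26.8 RPM in microglia libraries. Excitatory neuron genes were at 0 reads in all microglia libraries. Inhibitory neuron genes summed to 0, 0 and 2.93 RPM there. Both labels thus held by the sums of their markers, though not for every member. Cx3cr1 was at 0 reads in all 9 cell libraries, and P2ry12, Tmem119 and Gpr34 were low in microglia cells, as given below.

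Neither group was free of other cells' markers. The astrocyte list without Apoe and Cst3, which microglia also make, left 22 genes. These summed to 10570, 9135 and 10183 RPM in neuron libraries, 332, 86.2 and 127 RPM in microglia libraries and 47852, 46619 and 54173 RPM in astrocyte libraries. Oligodendrocyte lineage genes summed to 1318, 622 and 1803 RPM in neuron libraries, 95.8 to 101 RPM in microglia libraries and 4679 to 10060 RPM in astrocyte libraries. The neuron libraries thus carried both glial lists at levels between those of the other cultures. Neural progenitor genes, with Nes at 0 reads in both groups, ran from 259 to 456 RPM in neuron libraries and from 399 to 481 RPM in microglia libraries. In microglia cells 9 of the 12 progenitor members had 0 reads. Most of that sum was Vim, with 187, 182 and 253 reads, which was itself 6.94-fold higher in microglia cells. Likewise 14 of the 16 oligodendrocyte members had 0 reads in microglia cells, where Cnp held 44, 48 and 69 reads. Both sums in microglia libraries thus rest mainly on single genes. Fibroblast and vessel genes stood at 115 to 212 RPM in neuron libraries and at 6.91, 102 and 227 RPM in microglia libraries. Ependymal and choroid genes stayed at or under 144 RPM and blood cell genes were at 0 reads, with a row for only 1 of their 14 members. In bulk libraries fewer cells of a type and less RNA per cell cannot be told apart. The part of glial cells in the differences below was not tested, and the astrocyte level is given beside them.

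**Figure D2:**
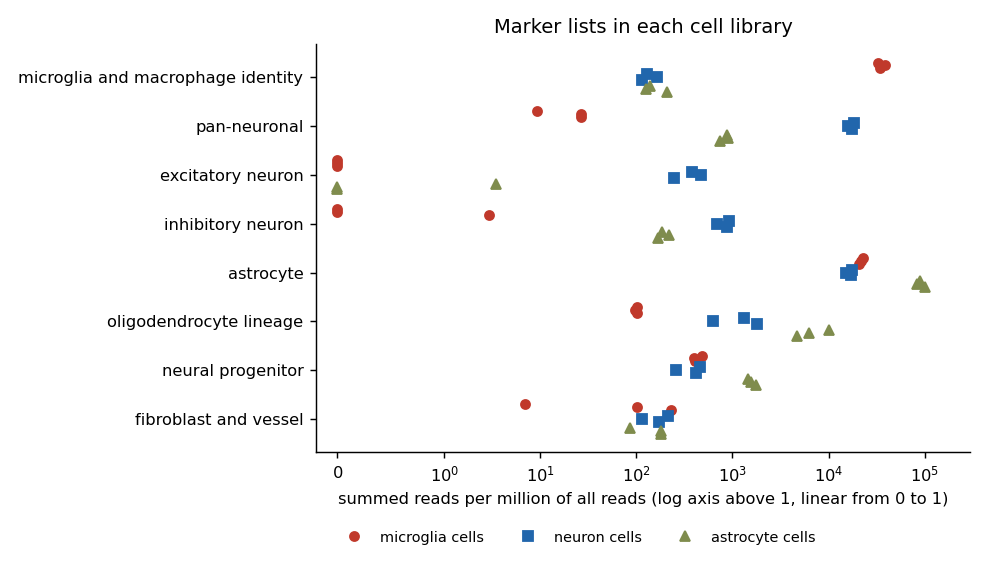
Summed RPM of each marker list (rows) in each of the 9 cell libraries (points; x axis logarithmic above 1 and linear from 0 to 1). Microglia identity genes stand at 32473 RPM or more in microglia libraries and 164 RPM or less in neuron libraries, while astrocyte and oligodendrocyte lists in neuron libraries lie above 0; the astrocyte sum in microglia libraries is mostly Apoe.

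A further limit was set by the labels of single genes. In 56 of the 6637 tested genes a library of either group held 1/10 or less of the reads of the highest library of its own group, with at least 50 reads there, and 24 of these genes were called. C1qb had 33 reads in microglia library 1 against 1555 and 1971 in the others. Slfn2, an interferon-induced gene, had 14 against 1339 and 1702. Syt4 had 52 reads in neuron library 1 against 1067 and 1021. Gapdh held 0 to 13 reads in each library. Whether reads of such genes stand under another label was not tested, and a low value of a single gene is to be read with that in mind.

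The genes with the largest folds toward neuron cells included the mitochondrially encoded mt-Nd5 (1271-fold), the non-coding RNA Meg3, and genes of the membrane, the cytoskeleton and splicing. Meg3, from the imprinted Dlk1-Dio3 locus, stood at 7724, 4953 and 6726 CPM in neuron cells and at 0, 11.7 and 8.96 CPM in microglia cells. The groups lay 939-fold apart, with a log2 difference of -9.75 ± 0.51 (SE) and an edgeR adjusted p of 1.19e-07. Astrocyte cells held it at a mean of 72.6 CPM. Atp1b1, a subunit of the sodium-potassium pump, was 599-fold higher in neuron cells (4709 ± 1071 against 7.86 ± 8.49 CPM). Snrpn, an imprinted splicing factor gene, was 192-fold higher (2140 ± 574 against 11.2 ± 2.36 CPM). Gpm6a and Gpm6b encode tetraspan proteolipids of neural membranes. Gpm6a stood at 5747, 5771 and 6808 CPM in neuron cells against a total of 2 reads in microglia cells, with an astrocyte mean of 3268 CPM. Gpm6b stood at 1899, 1872 and 1813 CPM against 0 reads, at least 218-fold higher, with an astrocyte mean of 1297 CPM. Both proteolipid genes were therefore present in both neural cultures. Nsg1, an endosomal protein of neurons, stood at 2608 ± 377 CPM in neuron cells and 234 CPM in astrocyte cells, with 2 reads in microglia cells. Sparcl1, a secreted matrix protein that astrocytes make in quantity, stood at 1774 ± 126 CPM in neuron cells, 5.61 ± 5.15 CPM in microglia cells and 3057 CPM in astrocyte cells.

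3 of the 12 genes with the largest differences toward neurons varied between the neuron libraries. Map1b, a microtubule-associated protein of growing axons, stood at 1113, 3411 and 1160 CPM. Stmn4, a tubulin-binding protein of the stathmin family, stood at 1924, 360.2 and 2119 CPM, and at 0 reads in microglia cells. Scd2, a fatty acid desaturase of brain, stood at 1718, 933 and 1866 CPM. Neuron library 2 was the odd one in each, high for Map1b and low for Stmn4 and Scd2, yet every neuron value lay above every microglia value. A subunit gene of respiratory complex I, mt-Nd5, stood at 17546, 14527 and 21368 CPM in neuron cells and at 6.75, 26.3 and 8.96 CPM in microglia cells. In astrocyte library 2 it fell to 713 CPM against 15162 and 22275 in the others, and all labels of the mitochondrial genome together took 0.818 to 1.09% of reads in microglia libraries and 4.77 to 7.54% in neuron libraries. The nuclear genome holds near-identical copies of mitochondrial genes, so the assignment of these reads is uncertain.

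Of the 2550 genes higher in neuron cells, 786 had a still higher mean CPM in astrocyte cells and 1402 lay between the neuron mean and 1/10 of it. In the other 362 the astrocyte mean was under 1/10 of the neuron mean. Without TMM the first count was 1432 in place of 786. By their sums, the pan-neuronal, excitatory, synaptic vesicle and ion channel lists were under 1/10 of the neuron level in astrocyte cells. The inhibitory, postsynaptic, cytoskeletal and neuropeptide lists were not, and the mean sum of the neuropeptide list was higher in astrocyte cells than in neuron cells.

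**Figure D3:**
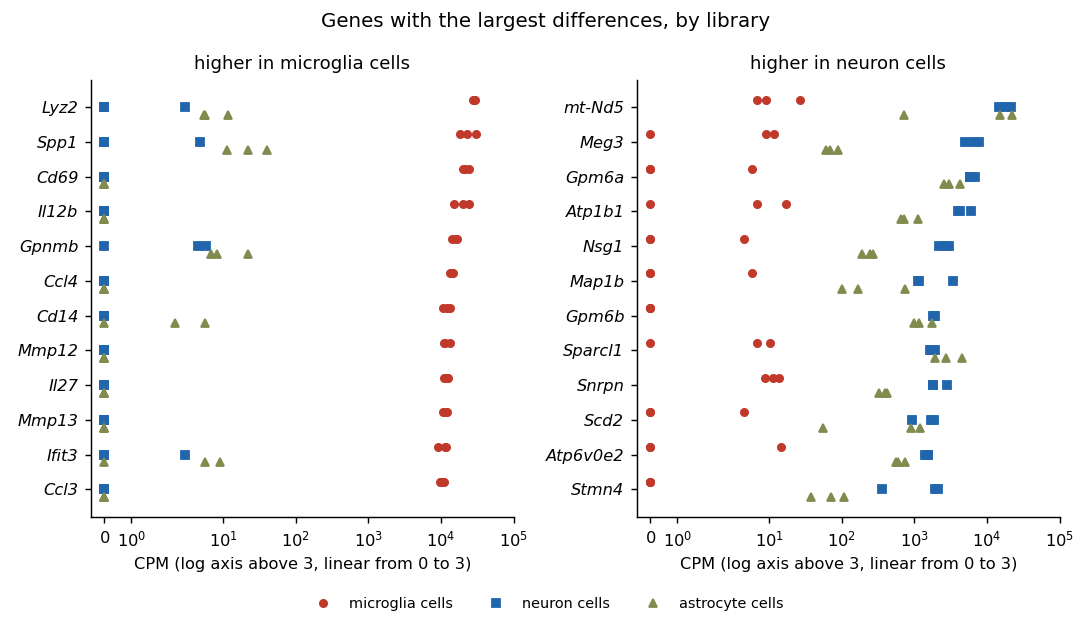
CPM in each cell library (points; x axis logarithmic above 3 and linear from 0 to 3) of the 12 genes with the largest folds in each direction. Microglia and neuron values are separated by more than 10-fold in every gene shown; astrocyte values are at or near 0 for the microglia genes and at intermediate or high levels for most of the neuron genes.

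Pan-neuronal genes were higher in neuron cells in 17 of the 17 tested of 24 members, with a median log2 difference of -9.75, or -6.01 with genes at 0 reads set to their bound. The median of all tested genes was -0.49. Gap43, a growth cone protein, stood at 1012, 1367 and 1125 CPM against 0 reads, at least 137-fold higher. Tubb3, the tubulin of neurons, stood at 982, 1026 and 798 CPM against 0 reads, at least 109.5-fold higher. Stmn2, a stathmin of axons, stood at 828, 1204 and 1229 CPM against 0, 5.85 and 13.4 CPM. The groups did not overlap for any of the 3, and astrocyte cells held Stmn2 at 0 reads. The list's sum in astrocyte cells was 836 RPM against 17273 RPM in neuron cells.

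Synaptic vesicle and release genes were higher in neuron cells in 17 of 17 tested of 30 members. Their sums were 6449, 10061 and 8741 RPM in neuron libraries and 36.4 to 49.8 RPM in microglia libraries, with 404 RPM in astrocyte cells. Snap25, a SNARE protein of the presynaptic membrane, stood at 668, 1108 and 751 CPM in neuron cells. Rab3a, the small GTPase of synaptic vesicles, stood at 686, 955 and 746 CPM. Syt5, a synaptotagmin, stood at 686, 927 and 691 CPM. None of the 3 had a read in microglia cells, and neuron library 2 was the highest in each. Syt4, a synaptotagmin of dense-core vesicles, stood at 78.1, 1544 and 1614 CPM, and its call (edgeR adjusted p 0.00201) was lost with edgeR's robust option (adjusted p 0.0899). The calcium sensor Syt1 stood at 576 ± 62.5 CPM and the vesicle SNARE Vamp2 at 408 ± 119 CPM, against 0 and 1.95 ± 3.38 CPM in microglia cells.

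Postsynaptic receptor and scaffold genes were higher in neuron cells in 18 of 18 tested of 33 members. Gria2, an AMPA receptor subunit, stood at 772, 709 and 774 CPM. Cacng3, an AMPA receptor auxiliary subunit, stood at 239, 395 and 247 CPM. Both were at 0 reads in microglia cells, which puts the differences at no less than 88.0-fold for Gria2 and 34.4-fold for Cacng3. Gria2 was also present in astrocyte cells, at 128 CPM. The list summed to 4166 RPM in neuron cells, 551 RPM in astrocyte cells and 6.86 RPM in microglia cells.

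Transmitter identity was mixed in the neuron libraries. Excitatory neuron genes were called in 5 of 5 tested of 14 members, and inhibitory neuron genes in 8 of 8 tested of 15. Slc30a3, the zinc transporter of glutamatergic vesicles, stood at 79.6, 107 and 79.0 CPM. Gad1, the GABA-synthesising enzyme, stood at 104, 75.2 and 98.0 CPM. Markers of interneurons were present as well, with Calb2 at 123 ± 19.4 CPM and the peptide gene Sst at 80.3 ± 25.2 CPM. All of these were at 0 reads in microglia cells. Neuronal ion channel genes were mostly too low to test: 5 of 26 members were tested and higher in neuron cells (9 with no filter), among them the sodium channel genes Scn3b (164 ± 22.3 CPM) and Scn2a (34.2 ± 2.17 CPM) and the potassium channel gene Kcnj3 (54.3 ± 4.10 CPM).

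Neuronal cytoskeleton and growth cone genes had the highest sum of the neuronal lists, with 34311 to 38317 RPM in neuron libraries and 2590 to 4999 RPM in microglia libraries. Of 29 tested of 36 members, 28 were higher in neuron cells. Tuba1a, the alpha-tubulin of developing neurons, stood at 10157, 9477 and 8749 CPM against 148, 120.0 and 148 CPM, 68.2-fold higher with an edgeR adjusted p of 6e-08. Rtn1, a reticulon of the neuronal endoplasmic reticulum, was 144-fold higher (3680 ± 316 against 25.5 ± 10.7 CPM). Stmn1, a stathmin that dividing cells also use, was 11.5-fold higher (1910 ± 73.8 against 166 ± 21.5 CPM). The exception was Marcksl1, an actin-binding substrate of protein kinase C. It stood at 6900, 6148 and 3455 CPM in microglia cells and at 907, 775 and 378 CPM in neuron cells, 8.01-fold higher in microglia cells with an edgeR adjusted p of 0.000174. In each cell type, astrocytes included, library 3 was the lowest for Marcksl1.

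Neuropeptide and granin genes were higher in neuron cells in 13 of 15 tested of 20 members. The list summed to 6931, 7759 and 5122 RPM in neuron libraries and to 59.9 to 76.7 RPM in microglia libraries. In astrocyte libraries it summed to 11785, 5753 and 7191 RPM, with a mean (8243 RPM) above that of neuron cells (6604 RPM). Granins are acidic proteins that load dense-core vesicles, and carboxypeptidase E (Cpe) trims the peptides inside them. Scg5, the chaperone of a prohormone convertase, stood at 644, 773 and 709.6 CPM. Pcsk1n, an inhibitor of a prohormone convertase, stood at 804, 635 and 539 CPM, and chromogranin B (Chgb) at 427, 748 and 455 CPM. The 3 genes had 0 reads in microglia cells and means of 70.6 to 163 CPM in astrocyte cells. Cpe stood at 2345, 2523 and 956 CPM in neuron cells and at 77.6, 73.2 and 80.7 CPM in microglia cells, but was higher still in astrocyte cells, at 5860 CPM. Penk, the enkephalin precursor, did not pass the test, at 0, 23.4 and 24.6 CPM in microglia cells and 28.5, 21.7 and 22.1 CPM in neuron cells.

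Promoters were searched because the granin genes are known targets of the cAMP-responsive factor CREB. RefSeq windows of build GRCm38.p6, which differs from the GRCm39 of the reads, were matched by symbol, and the 250 bases before each start were searched on both strands. The palindrome TGACGTCA, the CRE, was in 3 of the 11 windows of the 11 matched genes of the list that were higher in neuron cells (27.3%), in 2.80% of windows of all genes higher in neuron cells, in 2.64% of windows of tested genes and in 508 of all 32851 windows (1.55%). The windows of the 2 matching genes with the highest level are shown with the CRE in capitals, which begins 72 bases before the start of Chgb and 68 bases before that of Scg2. Secretogranin II (Scg2) stood at 296 ± 96.5 CPM in neuron cells and at 0 reads in microglia cells.
Chgb, chr2:132781392-132781641, plus strand: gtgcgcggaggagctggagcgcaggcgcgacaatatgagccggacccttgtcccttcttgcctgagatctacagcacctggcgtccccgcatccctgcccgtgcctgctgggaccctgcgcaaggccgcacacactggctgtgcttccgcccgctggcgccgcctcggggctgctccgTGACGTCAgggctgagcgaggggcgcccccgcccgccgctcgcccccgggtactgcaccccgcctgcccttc
Scg2, chr1:79440027-79440276, minus strand: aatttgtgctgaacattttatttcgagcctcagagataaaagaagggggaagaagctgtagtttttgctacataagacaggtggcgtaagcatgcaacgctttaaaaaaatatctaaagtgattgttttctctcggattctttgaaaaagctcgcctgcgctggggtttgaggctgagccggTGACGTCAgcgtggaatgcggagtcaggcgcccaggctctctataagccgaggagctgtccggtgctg
A match describes these letters and not a bound site.

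Among neuronal RNA-binding protein genes, Celf4 (229 ± 27.5 CPM) and Rbfox1 (100.3 ± 53.4 CPM), splicing regulators of neurons, had 0 reads in microglia cells. Mbnl2, a splicing regulator of the muscleblind family, was 3.39-fold higher in microglia cells (263, 257 and 316 against 55.6, 99.8 and 91.7 CPM). Celf2 was 1.77-fold higher in microglia cells (116 ± 37.9 against 65.4 ± 12.7 CPM, edgeR adjusted p 0.0190). The call was lost without microglia library 3 (edgeR adjusted p 0.119), without neuron library 2 (0.0660) or without neuron library 3 (0.0575). Without TMM the direction of Celf2 turned but the difference was not called (log2 difference -0.05). With all 18 libraries the adjusted p of Celf2 was 0.140. In all, 6 of 20 members were tested, 4 higher in neuron cells and 2 in microglia cells. With no filter 9 were higher in neuron cells and 1 in microglia cells, and without TMM or with upper-quartile scaling 4 and 1.

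In the other direction, microglia and macrophage identity genes were higher in microglia cells in 19 of 19 tested of 27 members. Spi1, the master transcription factor of the myeloid lineage, stood at 1437, 1264 and 560.2 CPM against 0 reads. The growth factor receptor Csf1r stood at 398, 448 and 419 CPM, at least 93.1-fold higher, and the lipid receptor Trem2 at 1653, 1723 and 1481 CPM. Cd68, a lysosomal membrane protein of macrophages, stood at 5314, 5928 and 5069 CPM. The cysteine protease Ctss stood at 5294, 6800 and 5925 CPM. Neuron cells had 0 reads of all of these, and the identity list ran at 158 RPM in astrocyte cells. Genes known from microglia in the resting brain were low. P2ry12, a purine receptor, stood at 0, 8.78 and 15.7 CPM, Tmem119 at 6.75, 26.3 and 15.7 CPM, and the receptor Gpr34 at 30.4, 26.3 and 29.1 CPM. None of these passed the filter on low counts. Fcrls varied most, at 16.9, 790.0 and 1006 CPM.

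Of the homeostatic microglia list, 6 of 18 members were tested, with 4 higher in microglia cells and 2 in neuron cells. The count rested on the filter on low values: 8 were higher in microglia cells and 2 in neuron cells on leaving out any 1 astrocyte or neuron library, and 9 and 2 with no filter. Mef2c, a transcription factor shared by microglia and cortical neurons, stood at 16.9, 17.6 and 22.4 CPM in microglia cells and at 774, 904 and 621 CPM in neuron cells, a 40.4-fold difference (edgeR adjusted p 1.68e-07). Sparc, a secreted matrix protein also made by astrocytes, stood at 33.7, 64.4 and 170.3 CPM in microglia cells, 575, 369 and 725 CPM in neuron cells and a mean of 1415 CPM in astrocyte cells. Disease-associated microglia genes were higher in microglia cells in 23 of 24 members, all tested. Spp1, the secreted phosphoprotein osteopontin, stood at 18607, 22902 and 30582 CPM against a total of 3 reads in neuron cells. The lysosomal glycoprotein gene Gpnmb stood at 16886, 16114 and 14200 CPM against 4.51, 5.79 and 0 CPM, and lysozyme (Lyz2) at 28789, 29641 and 27781 CPM against 2 reads in all. Microglia values did not overlap those of neuron cells in any of the 3. Apoe, the lipid carrier, differed less, at 31444, 31572 and 30307 CPM against 4083, 3662 and 4185 CPM (7.82-fold), with an astrocyte mean of 31172 CPM. Timp2, a metalloproteinase inhibitor, was lower in microglia cells (15.3 ± 14.6 against 113 ± 87.6 CPM; edgeR adjusted p 0.0240), but its neuron values were 162, 11.6 and 164 CPM. The call was lost without any 1 of 4 libraries (microglia 1 or 2, neuron 1 or 3), with adjusted p-values of 0.0629, 0.0875, 0.0706 and 0.0646, and with all 18 libraries in the fit (0.0622).

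Complement and Fc receptor genes were higher in microglia cells in 15 of 15 tested of 17 members. C5ar1 and C3ar1, receptors of the complement anaphylatoxins, stood at 4501, 4152 and 4150 CPM and at 2888, 3415 and 3805 CPM. Fcer1g, the shared signalling chain of Fc receptors, stood at 2571, 2783 and 2442 CPM. All had 0 reads in neuron cells, so the differences were at least 942-fold, 744-fold and 574-fold. For C1qb, a chain of the first complement component, the microglia values were 111, 4550 and 4417 CPM, and the call (edgeR adjusted p 0.00111) was lost with the robust option (adjusted p 0.0729). The sister chains C1qa (1302 ± 159 CPM) and C1qc (2534 ± 786 CPM) did not show the low first library.

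Inflammatory genes took a large share of the microglia reads. Chemokine and chemokine receptor genes summed to 37046 to 39373 RPM there and to 665 to 749 RPM in neuron libraries. Of 18 tested of 26 members, 16 were higher in microglia cells. Ccl4 stood at 14734, 13940 and 13434 CPM, Ccl3 at 10014, 10906 and 9808 CPM, Ccl2 at 5165, 7233 and 6660 CPM and Ccl5 at 4663, 5680 and 4936 CPM. These ligands draw monocytes and T cells, and all 4 had 0 reads in neuron and astrocyte cells, which sets Ccl4 at least 3099-fold higher. The 2 members higher in neuron cells were Cx3cl1 and Cxcl14. Cx3cl1, fractalkine, the neuronal ligand of the microglial receptor Cx3cr1, stood at 365, 294 and 283 CPM against 50.6, 61.4 and 20.2 CPM (7.12-fold; edgeR adjusted p 0.000666). Cxcl14 stood at 249 ± 36.0 against 31.0 ± 6.66 CPM.

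Cytokine and cytokine receptor genes were higher in microglia cells in 19 of 19 tested of 27 members. Il12b, the p40 subunit of interleukins 12 and 23, stood at 15105, 24658 and 20221 CPM. Il27, a subunit of interleukin 27, stood at 12156, 12415 and 11063 CPM. Il1a stood at 8678, 8907 and 8459 CPM, and Tnf at 5611, 5873 and 5893 CPM. Each had 0 reads in all neuron and astrocyte libraries, and the bounds were at least 4415-fold for Il12b, 2623-fold for Il27, 1917-fold for Il1a and 1279-fold for Tnf. The interleukin 1 receptor antagonist Il1rn (1627 ± 396 CPM) and Il6 (590.3 ± 47.4 CPM) were also at 0 reads in neuron cells.

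Toll-like receptor and NF-kB pathway genes were higher in microglia cells in 21 of 21 tested of 32 members. At the receptor, Cd14, which hands lipopolysaccharide to Tlr4, stood at 10692, 13551 and 12280 CPM against 0 reads. Tlr2, the receptor of bacterial lipoproteins, stood at 1292, 901 and 1181 CPM. Tlr4 itself was below the filter, at 16.9, 58.5 and 44.8 CPM. Downstream, Nfkbib, an inhibitor of NF-kB, was 12.4-fold higher (669 ± 98.3 against 54.0 ± 9.44 CPM) and Tank, an adaptor of the interferon-inducing kinases, 23.2-fold (419 ± 54.7 against 18.1 ± 3.97 CPM). The receptor genes named here had few or no reads in neuron cells, while Nfkbib and Tank were present in both. Of the 31 members with a gene label, 21 had 0 reads in neuron cells, so this contrast does not describe the whole list.

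Among inflammatory effector and metabolism genes, 21 of 21 tested of 28 members were higher in microglia cells. Cd69, a lectin of activated leukocytes, stood at 20307, 21138 and 24250 CPM, at least 4835-fold higher. The macrophage elastase Mmp12 stood at 10962, 13305 and 11446 CPM, and the collagenase Mmp13 at 10756, 11979 and 11748 CPM. The 3 genes had 0 reads in all neuron and astrocyte libraries. Cd83, a regulator of antigen-presenting cells, stood at 9797 ± 1362 CPM against 11.4 ± 7.72 CPM. Acod1, which makes itaconate, stood at 3580 ± 295 CPM against 0 reads. Nos2, the inducible nitric oxide synthase, was below the filter, at 16.9, 0 and 24.6 CPM.

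NF-kB is the family of factors that Toll-like receptors release to the nucleus. A motif of its kind, GGG and TTTCC parted by any 2 bases, was in 22.2% of the 27 promoter windows of chemokine and cytokine genes higher in microglia cells (6 of 23 matched genes) and in 1.41% of all 32851 windows. In all genes higher in microglia cells it was in 2.60% of windows, and in all genes higher in neuron cells in 0.983%. The windows of the 2 matched genes with the highest level are shown with the match in capitals, 35 bases before the start of Ccl9 and 51 bases before that of Il1rn. Ccl9, a chemokine of mouse macrophages, stood at 3030, 3239 and 3536 CPM in microglia cells against 0 reads in neuron cells. In Ccl9 the match is on the other strand and reads as the reverse complement of the motif.
Ccl9, chr11:83578637-83578886, minus strand: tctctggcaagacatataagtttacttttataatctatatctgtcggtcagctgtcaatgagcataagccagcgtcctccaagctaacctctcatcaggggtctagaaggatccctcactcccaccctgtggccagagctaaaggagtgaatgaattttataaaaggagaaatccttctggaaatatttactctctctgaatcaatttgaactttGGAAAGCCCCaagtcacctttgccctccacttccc
Il1rn, chr2:24345121-24345370, plus strand: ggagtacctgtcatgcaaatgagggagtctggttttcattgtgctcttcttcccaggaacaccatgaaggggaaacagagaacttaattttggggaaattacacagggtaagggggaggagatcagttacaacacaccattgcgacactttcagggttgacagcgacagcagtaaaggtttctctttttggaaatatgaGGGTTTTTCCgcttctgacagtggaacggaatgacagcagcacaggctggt
The PU.1 motif GAGGAAGT was in the windows of 2 of 33 matched identity, complement and leukocyte actin genes higher in microglia cells (5% of windows), near its share of 4.15% in all genes higher in microglia cells, and in 2.44% of all windows. Motifs were counted separately, and a stretch of bases may match more than 1 of them.

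Interferon response genes were higher in microglia cells in 34 of 34 tested of 37 members. They summed to 53888 to 56431 RPM in microglia libraries and to 110 to 248 RPM in neuron libraries. Cmpk2, a mitochondrial nucleotide kinase, stood at 15746, 14701 and 19136 CPM against 27.0, 30.4 and 30.0 CPM, 567-fold higher. Ifit3, an RNA-binding antiviral protein with a near-identical neighbour that could share its reads, stood at 11353, 9200 and 11690 CPM against 2 reads in all. The guanylate-binding protein Gbp2 stood at 8067, 9097 and 9954 CPM against 3.004, 0 and 9.48 CPM, 2172-fold higher. Ifit2 varied, at 12591, 11172 and 1690 CPM, and its lowest library, microglia 3, still lay far above the neuron values of 6.01, 2.89 and 3.16 CPM. The interferon beta gene Ifnb1 stood at 79.0 ± 22.2 CPM in microglia cells against 0 reads in neuron cells. The labels name no stimulus, and whether the cultures had met one was not tested.

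The interferon-stimulated response element (ISRE) is the site at which interferon-activated factors bind. Its core, GAAA and GAAA parted by any 2 bases, was in the windows of 13 of 26 matched interferon response genes higher in microglia cells (39.4% of 33 windows), in 5.645% of windows of all genes higher in microglia cells, in 2.98% of all windows and in 1.86% of windows of genes higher in neuron cells. The windows of the 2 matched genes with the highest level are shown with the core in capitals, read here on the other strand. Ifit3 holds 2 copies, 156 and 122 bases before the start, and Gbp2 holds 1, 59 bases before the start.
Ifit3, chr19:34583279-34583528, plus strand: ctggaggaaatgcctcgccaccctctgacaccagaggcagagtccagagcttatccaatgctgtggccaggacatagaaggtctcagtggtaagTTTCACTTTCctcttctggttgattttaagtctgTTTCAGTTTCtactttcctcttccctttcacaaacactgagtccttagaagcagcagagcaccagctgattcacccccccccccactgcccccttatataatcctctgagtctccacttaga
Gbp2, chr3:142620413-142620662, plus strand: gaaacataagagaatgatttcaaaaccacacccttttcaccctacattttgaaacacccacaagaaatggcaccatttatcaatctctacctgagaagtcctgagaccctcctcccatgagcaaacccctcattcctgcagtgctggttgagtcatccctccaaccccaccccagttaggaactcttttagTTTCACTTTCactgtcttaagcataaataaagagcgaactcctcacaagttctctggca
The lists are functional groups that include known targets of these factors, and they were chosen with earlier results of these data known. A high share of matches therefore describes the lists.

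Antigen presentation genes were higher in microglia cells in 17 of 18 tested of 25 members. Class I genes were present in both cell types. H2-D1 stood at 12186, 12696 and 10323 CPM against 351, 319.7 and 300.3 CPM (36.2-fold), H2-K1 at 2524 ± 52.1 against 51.1 ± 14.2 CPM (49.4-fold), and their light chain B2m at 4769 ± 564 against 92.0 ± 20.6 CPM (51.8-fold). The class I genes are close copies of one another, so the division of reads among them is uncertain. The costimulatory receptor Cd40 stood at 1873 ± 306 CPM against a total of 2 reads. Class II was low: the invariant chain Cd74 stood at 341, 413 and 309 CPM and H2-Ab1 at 17.5 ± 0.536 CPM, below the filter. H2-DMa, a class II peptide loader, went the other way, at 0, 5.85 and 8.96 CPM in microglia cells and 43.6, 31.8 and 39.5 CPM in neuron cells (edgeR adjusted p 0.00566). This call was lost with all 18 libraries in the fit (adjusted p 0.0936).

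Lysosome and phagocytosis genes were higher in microglia cells in 31 of 32 members, all tested, with a median log2 difference of 4.28. Unlike the inflammatory lists, most members were present in both cell types, and only 7 had 0 reads in neuron cells. Cathepsin B (Ctsb) stood at 43935, 47929 and 48320 CPM against 1959, 2132 and 2078 CPM, 22.7-fold higher. Cathepsin D (Ctsd) stood at 17713, 18850 and 17319 CPM against 637, 723 and 765 CPM, 25.4-fold higher. Psap, the saposin precursor needed for sphingolipid breakdown, was 4.45-fold higher (13155 ± 617 against 2958 ± 163 CPM), and the protease Lgmn 31.9-fold (11314 ± 1027 against 355 ± 43.3 CPM). Npc1, the lysosomal cholesterol transporter, did not pass the test (25.5 ± 4.67 against 15.3 ± 7.33 CPM). Leukocyte actin and signalling genes were higher in microglia cells in 21 of 21 tested of 30 members. Arpc1b, an Arp2/3 subunit of blood cells, was 58.1-fold higher (3949 ± 365 against 68.0 ± 23.3 CPM) and the capping protein Capg 298-fold (2725 ± 185 against 9.14 ± 4.18 CPM). Plek, a substrate of protein kinase C in leukocytes, stood at 3877 ± 404 CPM against a single neuron library with 2 reads.

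**Figure D4:**
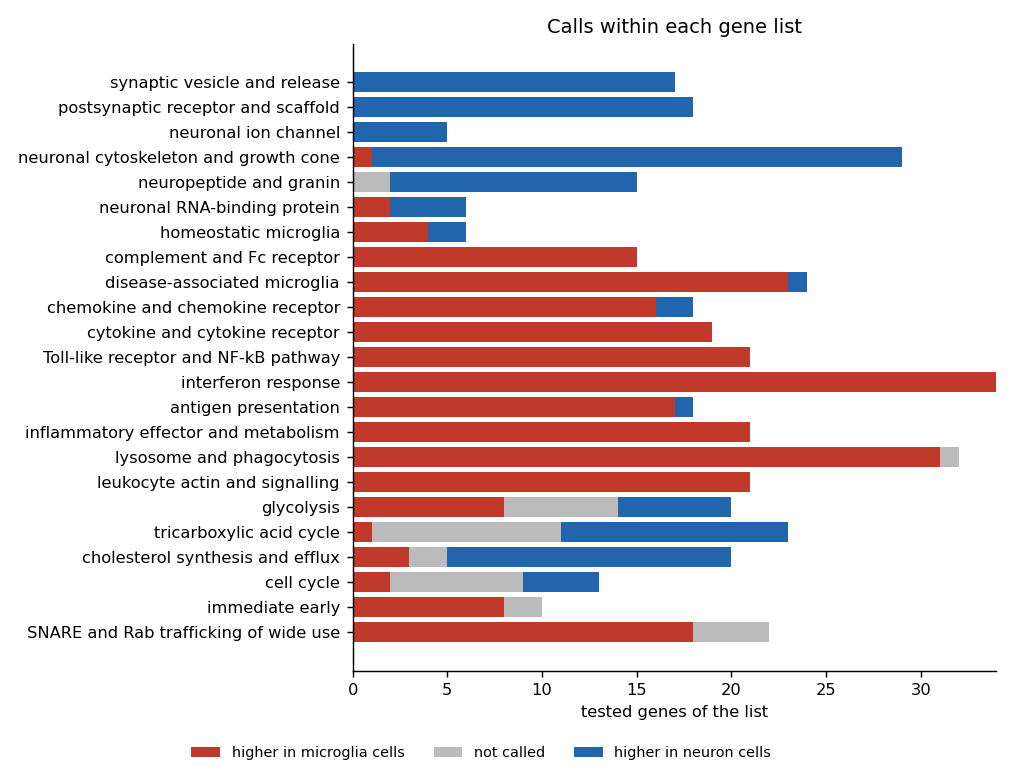
Number of tested genes (x axis) in each functional gene list (rows) that were higher in microglia cells, not called, or higher in neuron cells. Bars are stacked. Synaptic and cytoskeletal lists hold almost only genes higher in neuron cells, with Marcksl1 as the 1 exception in the cytoskeletal list. Immune lists hold mostly genes higher in microglia cells, with 34 of 34 interferon response genes. The glycolysis list is divided, and the tricarboxylic acid cycle and cholesterol lists hold more genes higher in neuron cells than in microglia cells.

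Genes that both cell types need showed smaller differences, and here the scaling matters most. Glycolysis genes divided into 8 higher in microglia cells, 6 higher in neuron cells and 6 not called of 20 tested, with a median log2 difference of 0.48, which turned to -0.41 without TMM (4 and 10 called). Tricarboxylic acid cycle genes were higher in neuron cells in 12 of 23, with 1 higher in microglia cells and a median of -0.57. Without TMM 20 were higher in neuron cells. Mdh1 and Mdh2, the malate dehydrogenases, were 2.19-fold and 1.53-fold higher in neuron cells, and the call of Mdh1 was lost with all 18 libraries in the fit (edgeR adjusted p 0.0761). Aco1, the cytosolic aconitase that also senses iron, was 2.54-fold higher in microglia cells (48.6 ± 4.44 against 19.1 ± 8.84 CPM), a call lost without TMM (adjusted p 0.284) or with all 18 libraries (0.169). The call of Sdha (1.30-fold higher in neuron cells, edgeR adjusted p 0.0484) was lost on leaving out any of 8 libraries, with adjusted p-values from 0.0625 to 0.148, and with all 18 libraries in the fit (0.124). Labels of the mitochondrial genome also took a lower share of reads in microglia libraries, as given above, and its part in these differences was not tested.

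Cholesterol synthesis and efflux genes were mostly higher in neuron cells. Of 20 tested of 24 members, 15 were higher there and 3 in microglia cells. Sqle, squalene epoxidase, stood at 1112, 1371 and 1239 CPM against 50.6, 55.6 and 87.4 CPM, 19.2-fold higher. Hmgcs1, which starts the mevalonate pathway, was 10.3-fold higher (1342 ± 179 against 130.1 ± 51.6 CPM), and Msmo1, a sterol oxidase, 4.36-fold (1201 ± 77.4 against 276 ± 26.4 CPM). The neuron means also exceeded the astrocyte means of 393 CPM for Sqle, 543 CPM for Hmgcs1 and 550.4 CPM for Msmo1. The members on the microglia side included Apoe and Ch25h, an interferon-induced enzyme that makes 25-hydroxycholesterol, at 584, 1203 and 755 CPM against 0 reads. Ebp, a sterol isomerase, did not pass the test (88.4 CPM in microglia cells and 77.6 CPM in neuron cells).

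Cell cycle genes gave no common direction, with 2 higher in microglia cells, 4 higher in neuron cells and 7 not called of 13 tested of 22. The replication clamp Pcna was 5.82-fold higher in microglia cells (408 ± 35.3 against 70.1 ± 10.4 CPM) and the helicase subunit Mcm6 3.15-fold. Rrm2, a ribonucleotide reductase subunit, was 3.60-fold higher in neuron cells (edgeR adjusted p 0.0216), but its microglia values were 27.0, 8.78 and 60.5 CPM and the call was lost without microglia library 1 or 2 or without neuron library 1 or 3 (adjusted p 0.0680, 0.0818, 0.0553 and 0.0544), as it was with all 18 libraries (0.0693). Immediate early genes were higher in microglia cells in 8 of 10 tested of 24. Atf3, a stress-induced transcription factor, stood at 1454, 1589 and 1465 CPM against 0 reads, and Junb was 26.4-fold higher (515 ± 56.6 against 19.5 ± 5.69 CPM). Fos did not pass the test (52.5 ± 2.39 against 40.4 ± 11.6 CPM).

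Trafficking genes of wide use were the counterpart of the synaptic lists. Of 22 tested of 27 SNARE and Rab genes outside the synapse, 18 were higher in microglia cells, with a median log2 difference of 1.53. Without TMM 11 were higher in microglia cells and 4 in neuron cells (median 0.65). Rab8b, a GTPase of membrane transport, stood at 840.1, 550.1 and 937 CPM against 18.03, 17.4 and 17.4 CPM, 44.1-fold higher. Rab7 of late endosomes was 1.92-fold higher (954 ± 115 against 498 ± 66.8 CPM), a call lost without TMM (adjusted p 0.826). Rab1a, of transport between endoplasmic reticulum and Golgi, was 1.75-fold higher, and its direction turned without TMM (log2 difference -0.08, not called). With all 18 libraries the call of Rab1a was lost (edgeR adjusted p 0.105). Rab11a of recycling endosomes was not called (444 ± 33.8 against 404 ± 88.1 CPM).

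Related genes were also set side by side in 36 paralog pairs, each listed with the form known from neurons first. Both genes were tested in 27 pairs. In 20 pairs the genes were called in opposite directions, always with the neuronal form higher in neuron cells. Of all tested genes, 38.4% were higher in neuron cells and 25.9% in microglia cells. The pairs were chosen with earlier results of these data known, so count and direction describe the choice. Some first genes, such as Snap25 and Tubb3, had 0 reads in microglia cells and could hardly fail to be called. In 5 pairs both were higher in neuron cells, and in 2 the second gene was not called. The SNARE gene Snap25 stood at 842 ± 234 CPM in neuron cells and 0 reads in microglia cells, whereas Snap23 stood at 14.5 ± 4.45 and 278 ± 22.9 CPM. Vamp2 and Vamp8 divided in the same way. In the cytoskeleton, Tubb3 was opposed by Tubb6 (204 ± 47.5 CPM in microglia cells against 45.9 ± 13.8 CPM; lost with all 18 libraries, edgeR adjusted p 0.0579), Pfn2 by Pfn1 (1514 ± 86.8 against 208 ± 28.9 CPM), and the actin-sequestering Tmsb10 by Tmsb4x (3412 ± 140.4 against 731 ± 75.7 CPM). Tuba1a was opposed by Tuba1c (81.6 ± 12.3 against 4.05 ± 1.01 CPM), though these tubulin genes are near-identical in their coding sequence and the division of reads between them is uncertain.

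Glycolytic isozymes divided as well. Aldoc was 9.83-fold higher in neuron cells (366 ± 70.3 against 37.3 ± 18.4 CPM) and Aldoa 2.64-fold higher in microglia cells (2422 ± 132 against 916 ± 207 CPM). Eno2, neuron-specific enolase, was 12.1-fold higher in neuron cells, and Eno1 1.62-fold higher in microglia cells. The lactate dehydrogenase gene Ldhb was 7.15-fold higher in neuron cells (991 ± 179.7 against 139 ± 22.2 CPM) and Ldha 1.80-fold higher in microglia cells (929.9 ± 109 against 518 ± 75.3 CPM). For Eno1 and Ldha the direction turned without TMM, with log2 differences of -0.20 and -0.05 that were not called. The call of Eno1 was also lost with all 18 libraries (edgeR adjusted p 0.0746). Ldhb and Aldoc were higher still in astrocyte cells, at 1857 and 719 CPM. The proton pump subunits Atp6v1g2 (362 ± 105 CPM in neuron cells against 2 reads in microglia cells) and Atp6v1g1 (723 ± 107 CPM in microglia cells against 235 ± 43.7 CPM) divided too. Of the glucose transporters, Slc2a3 stood at 198 ± 20.0 CPM in neuron cells and 0 reads in microglia cells, and Slc2a1 at 90.4 ± 17.5 and 332 ± 78.0 CPM.

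**Figure D5:**
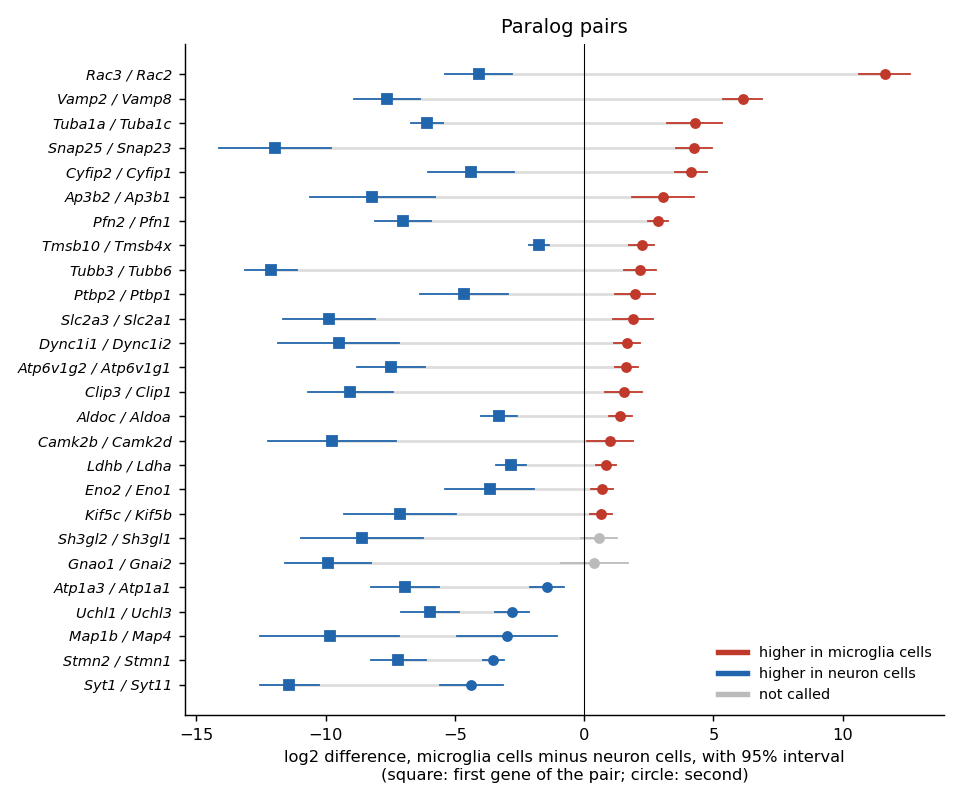
Log2 difference of microglia cells minus neuron cells (x axis) with its 95% interval for both genes of 26 of the 27 pairs with both genes tested (rows; square for the first, neuronal, gene and circle for the second). Squares all lie left of 0, and the circle lies right of 0 and is called in 19 of the pairs shown.

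With TMM scaling, some genes had a like level in both cell types. In 621 of the tested genes the 95% interval of the log2 difference lay inside -1 to 1, that is, within 2-fold. These intervals depend on the scaling, since the median log2 difference of all genes moved from -0.49 to -1.37 without TMM. Intervals without TMM are not given here. Of these, Ubb, a polyubiquitin gene, stood at 7092, 8096 and 7287 CPM in microglia cells and at 7766, 7688 and 7892 CPM in neuron cells, with an interval from -0.47 to 0.36. The chaperone Hspa8 stood at 6179 ± 568 and 5136 ± 709 CPM (interval -0.16 to 0.69), and the tetraspanin Cd81 at 2232 ± 167 and 2476 ± 279 CPM (-0.59 to 0.29). Atp6v0b, a proton pump subunit, and the protease inhibitor Cst3 had intervals of -0.51 to 0.26 and -0.82 to 0.44. Pdia3, an endoplasmic reticulum chaperone, lay within 2-fold but was called higher in microglia cells (log2 difference 0.60, edgeR adjusted p 0.0112). Without TMM its log2 difference turned to -0.30 and was not called. With all 18 libraries its call was lost (edgeR adjusted p 0.151). Actins did not serve as a level standard. Actb stood at 9099, 7403 and 8136 CPM in microglia cells and 55.6, 43.4 and 36.3 CPM in neuron cells, while astrocyte libraries had 60.0, 1582 and 90.4 CPM, so that the label itself varied between libraries of 1 group. Actg1 stood at 651 ± 107 and 888 ± 96.5 CPM and was not called (edgeR adjusted p 0.0599).

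Long reads also allowed isoforms to be compared. Of 7095 isoforms tested, 4407 differed (62.1%), 1909 higher in microglia cells and 2498 higher in neuron cells. In 103 genes isoforms of the same gene were called in both directions. Isoform usage was taken as the share of each isoform among the reads of the tested isoforms of its gene. Isoforms that did not pass the filter are left out of the shares and read totals below. Usage was tested with edgeR's diffSpliceDGE in 1031 genes with 2 or more tested isoforms. It differed in 244 (23.7%), and in 117 of these the most used isoform was not the same. Isoforms are named here by their number in the deposited table, which gives neither exons nor coordinates, so which known splice form each is was not determined.

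Pkm, pyruvate kinase, is a gene known for a splice switch between tissues. Isoform 18517 took 100% of the 1138, 1179 and 2084 reads of tested isoforms in the microglia libraries. In the neuron libraries it took 5.15, 2.55 and 3.27% of 621, 706 and 459 such reads. Isoform 59567 took the other 94.8, 97.5 and 96.7% in neuron cells and had 0 reads in microglia cells (gene-level edgeR adjusted p 3.36e-08). Astrocyte libraries used isoform 18517 alone. The main form thus changed in each neuron library, while the gene as a whole was 4.42-fold higher in microglia cells. Cadm1, a synaptic and immune adhesion molecule, divided its reads among more forms. Isoform 18351 took 74.6, 88.9 and 76.4% of reads in microglia cells and 1.31, 0.496 and 2.04% in neuron cells. Isoforms 59472, 18349 and 18352 took 37.5 ± 6.81, 30.5 ± 0.769 and 18.7 ± 1.45% in neuron cells, and 0 to 0.188% on average in microglia cells. In astrocyte libraries isoform 18351 took 15.1, 16.7 and 24.6%, and most reads were of isoform 18350 (57.6, 55.1 and 50.7%).

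Tecr, an enzyme of very long fatty acid synthesis, used isoform 17488 for 98.2, 98.8 and 96.3% of reads in microglia cells and for 18.03, 14.97 and 20.97% in neuron cells. Its other tested form, isoform 17490, took the rest. Tspan4, a tetraspanin of migrating cells, used isoform 16874 for 88.4 ± 6.94% in microglia cells, and isoform 16876 for 67.7 ± 10.5% in neuron cells. Tspan4 rests on 53 to 133 reads per library. Aplp2, a relative of the amyloid precursor protein, used isoform 18198 for 80.8 ± 5.43% in microglia cells and 17.1 ± 9.15% in neuron cells. Isoform 18196, a new combination of known junctions, took 5.74 ± 4.97 and 74.1 ± 9.33%, with 62.1 to 64.4% in astrocyte libraries. Microglia and neuron shares did not overlap for any of these isoforms.

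Trafficking and cytoskeletal genes, chosen after their values were seen, were also among the 244. The small GTPase Cdc42 used isoform 13094 for 99.3, 100 and 100% of reads in microglia cells and for 56.3, 50.6 and 59.6% in neuron cells, with isoform 13095 making up the rest. The clathrin light chain gene Clta used isoform 12399 alone in microglia cells (51 to 104 reads per library), but for 21.2, 13.2 and 25.5% of 52, 76 and 55 reads in neuron cells. Its partner Cltb used isoform 4704 alone in microglia cells, on 12 to 19 reads per library, and for 47.5 ± 2.01% in neuron cells. Astrocyte libraries used isoform 12399 for 100, 90.7 and 100% of Clta reads and isoform 4704 alone for Cltb, as microglia cells did. Tpm3, a tropomyosin, used isoform 40432 for 89.5 ± 0.779% in microglia cells and isoform 11673 for 92.9 ± 4.28% in neuron cells. Isoform 11673 was also the main form in astrocyte libraries, at 87.6, 92.4 and 93.3%. Lamp2, a lysosomal membrane protein, used isoform 19310 for 20.0 ± 4.39% in neuron cells and 0.0868 ± 0.150% in microglia cells. Leaving out 1 microglia library lowered the count of genes with a change in usage from 244 to 157, 162 or 142 (without library 1, 2 or 3).

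The structural class of the reads differed as well. Full-splice matches, reads whose junctions all follow an annotated transcript, took 91.9, 91.5 and 91.1% of reads in microglia libraries and 86.1, 87.1 and 84.3% in neuron libraries. Incomplete-splice matches, which lack part of the junctions, took 2.79 ± 0.117% against 5.44 ± 1.30%, and new combinations of known splice sites 3.24 ± 0.283% against 5.60 ± 0.175%. Values of the groups did not overlap for these 3 classes. The two-sided exact permutation p was 0.1 for each, the smallest that 3 against 3 libraries can give, and 0.16 after adjustment over the classes. Astrocyte libraries lay between, with 89.2% full-splice matches.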

How the data were processed

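The data are long-read (PacBio) sequencing of full-length cDNA from cultured mouse cells. The authors deposited raw counts of reads per isoform, 114425 isoforms under 17714 gene labels, with no value of 1. The submitters' processing notes name minimap2 and GRCm39. For the isoform caller and annotation, names and versions were not given in the sources used here. Counts were summed per gene label, read-throughs apart. The 9 cell libraries were fitted together in R 4.3.3 with edgeR 4.0.16 (filterByExpr by group, TMM, quasi-likelihood F-test, Benjamini-Hochberg threshold 0.05). Isoform usage was tested with diffSpliceDGE (Simes). DESeq2 1.42.0 was an alternative. Library totals of 434298 to 683381 reads set a floor of 3 reads per library. Scripts were tested on simulated data.

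Genes were named by rule: the 12 largest folds in each direction without overlap and with a mean of at least 20 reads, up to 6 members per list (highest called, opposed, highest not called), the 6 highest genes within 2-fold, up to 8 opposed paralog pairs and the 5 strongest usage changes. Other named list members and pairs were chosen after their values were seen. The comparison, the lists and the pairs were chosen with earlier results of these data known. Promoter windows came from RefSeq, build GRCm38.p6, and 5302 of the 6637 tested genes had one. A few genes of the lists, and 1 paralog pair, are counted but not reported here by name.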

Additional observations from a re-analysis of the deposited data

How the results depend on the processing

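The count of 4268 genes kept within 1.5 times under all 20 other settings run, from 3546 with all 18 libraries in the fit to 5387 of 15344 genes with no filter, and from 4192 to 4579 on leaving out 1 library. It was 4209 with DESeq2 and 3860 with the 6 compared libraries alone. Whether equal replicate numbers mark a shared culture could not be decided. Deviations of same-numbered microglia and neuron libraries from their group means correlated at -0.03, 0.01 and 0.07. Differently numbered libraries, astrocyte cells included, ranged from -0.10 to 0.13, and 3 libraries per group are too few to tell. With the replicate number as a block, 4059 genes were called. Counts from list members (402 to 494 around 430), paralog pairs (14 to 21 around 20) and isoforms (3415 to 5638 around 4407) kept within 1.5 times. Usage changes, 244 in all, numbered 142 to 238 on leaving out 1 library, with 164 for isoforms of at least 10 reads on average. The difference in full-splice matches was 4.86 to 6.26 points on leaving out 1 library. Neuron-higher genes with a higher astrocyte mean numbered 1432 without TMM.

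Of 164 named genes tested, 137 kept direction and side of the threshold under all 20 settings. Without TMM the log2 difference turned for Celf2 (-0.052), Eno1 (-0.20), Ldha (-0.048), Rab1a (-0.080) and Pdia3 (-0.30), where the median of all genes moved to -1.37. None of these turned differences was called (edgeR adjusted p from 0.122 to 0.872). With all 18 libraries 12 named calls were lost (Dcn, Celf2, Timp2, H2-DMa, Eno1, Mdh1, Sdha, Aco1, Rrm2, Rab1a, Pdia3 and Tubb6), and opposed pairs numbered 14; the cause was not tested. Depth limits statements on genes under about 3 reads per library.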
